A study of Mus musculus with 12 samples.

Results

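Transferred TH17 cells that lacked both IL-17A and IL-17F were compared with wild-type TH17 cells in the CXCR6+ sort. The comparison sets 1 double-knockout library (DKO) against 5 wild-type libraries (WT), which is 6 of the 12 samples of the series, and covers all 47359 genes of the deposited table. The labels give the genotypes as 2D2-IL-17A/F-DKO and 2D2-WT. Both kinds of donor cells are labelled with the 2D2 transgenic T cell receptor, which recognises the myelin protein MOG, and both had been transferred into RAG2-/- mice, which lack host lymphocytes of the T and B lineages but keep myeloid, natural killer and red cells. At the disease peak of experimental autoimmune encephalomyelitis, in which T cells attack myelin as in multiple sclerosis, the cells were recovered from the central nervous system (CNS). For each library 1000 living cells were sorted. The other 6 samples are SLAMF6+ cells of the same genotypes (1 DKO, 5 WT), which share the fit and serve here only to show where the CXCR6+ comparison differs. The DKO library has no replicate, so all spread comes from WT libraries, and a permutation of 1 against 5 cannot give a one-sided p below 1 in 6. Whether separate animals gave the WT replicates is not stated in the labels, and p-values then reflect the spread of these samples alone, which may be technical.

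TH17 cells are helper T cells that depend on the cytokines IL-6, TGF-β, IL-1 and IL-23, and that secrete IL-17A and IL-17F. Both cytokines act on epithelial, stromal and glial cells through a receptor made of the IL-17RA and IL-17RC chains, and draw neutrophils and monocytes into tissue. CXCR6, the receptor for the chemokine CXCL16, is carried by effector T cells in inflamed tissue, whereas SLAMF6 is a marker of T cells that keep stem-like features.

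The libraries held 6818658 to 8710148 counts in WT CXCR6+ and 8552216 counts in DKO CXCR6+. Levels below are in CPM, that is counts scaled to library totals that were adjusted with edgeR's TMM factors. Before any result, the DKO library stands apart from WT in ways that no label mentions. The segment Trbv16, which encodes the Vβ11 chain of the 2D2 receptor, made up 9.96% of its Trbv counts (95% exact binomial interval 9.45 to 10.5%) against 99.6 to 99.8% in WT. For the α chain family of that receptor, the segments Trav9d-3 plus Trav9n-3, whose reads cannot be separated, held 0.575% of its Trav counts (0.427 to 0.757%) against 85.4 to 89.2% in WT. Xist, the X inactivation transcript, was at 0 counts in the DKO library and at 151 to 208 CPM in WT, and the Y-linked genes Ddx3y and Uty were at 36.3 and 21.0 CPM against 0 counts in WT. Mitochondrial genes took 7.45% of the DKO counts (12.9 to 17.6% in WT) and ribosomal protein genes 16.2% (9.46 to 10.8%). Genotype, receptor make-up, sex of the cells, RNA composition and library cannot be told apart in any difference given below. With a single DKO library no result can be given without it. In bulk samples, fewer cells of a type and less RNA per cell cannot be told apart either.

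The labelled cell type was checked first. The T cell receptor complex genes Cd3e and Cd3g stood at 578 and 762 CPM in the DKO library, and Cd4 at 319 CPM (187 to 308 CPM in WT). Cd8a was at 0 counts in DKO and at most 0.329 CPM in WT, and Foxp3, the regulatory T cell factor, was at 0 counts in DKO and at most 0.335 CPM in WT.

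Both targeted cytokine genes had counts in every WT library, whereas the DKO library held at most 1 count of either. Il17a (chromosome 1, 20730905 to 20734496, GRCm38 build) stood at 357, 435, 299.6, 442 and 191 CPM in WT replicates 1 to 5 and at 0 counts in DKO, at least 994-fold lower than the WT mean against a floor of 3 counts in the DKO library. Il17f (chromosome 1, 20777146 to 20790617) stood at 58.4, 28.1, 66.7, 17.3 and 41.9 CPM in WT and at 1 count (0.116 CPM) in DKO. The WT mean was 368 times the DKO level, with an exact Poisson interval of 66.0 to 14519 from the DKO count (edgeR quasi-likelihood test, Benjamini-Hochberg adjusted p 0.000862). The groups did not overlap for either gene, but with limma-voom neither passed (adjusted p 0.178 and 0.334). Among 45 tested genes within 5 Mb of Il17a, a count that includes Il17a and Il17f, 3 were higher and 5 lower in DKO. Both targeted genes are among the lower ones. Of all tested genes 12.8% were called higher and 15.9% lower. In the DKO library, 3 counts correspond to 0.347 CPM, the level that a count of 0 still allows. Floors and intervals cover counting error only.

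The gene of the sort marker was much higher in the DKO library. Cxcr6 (chromosome 9, 123806475 to 123811760) stood at 42.1, 42.9, 4.34, 19.8 and 22.4 CPM in WT and at 382 CPM in DKO (log2 3.86, SE 0.63, edgeR adjusted p 0.000778). WT replicate 3 held the lowest level of Cxcr6, although it came from the same CXCR6+ sort. Slamf6, the marker of the other sort, stood at 1.69, 4.39, 3.43, 1.99 and 5.02 CPM in WT and at 75.8 CPM in DKO (log2 4.52, edgeR adjusted p 9e-06). For both genes the DKO value lay above all 5 WT values.

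Across the 21565 genes that passed the filter on low counts, 6199 differed between DKO and WT CXCR6+ cells (28.7% of the genes tested, edgeR quasi-likelihood test, adjusted p under 0.05). Of these, 2767 were higher (12.8%) and 3432 lower (15.9%) in DKO. These shares are the background for every list count below. With limma-voom the balance turned, to 4125 higher and 2433 lower of 6558 called. All 6199 had a DKO value outside the range of the 5 WT libraries, but so had many genes that were not called: 29.6% of tested genes lay above and 28.1% below that range. The median log2 fold change over all tested genes was -0.22, the value against which list medians are given. By fitted values, at least 4-fold differences numbered 818 higher and 1836 lower. Genes at 0 DKO counts enter by fitted folds, which can exceed the bound that 3 counts would give. Fer, for example, was fitted at log2 -6.65 from a WT mean of 1.37 CPM and 0 CPM in DKO. The floor of 3 counts lies lower in CPM over 5 WT libraries than in 1 DKO library, so the directions are not compared. In DKO, 122 genes with a WT mean of at least 20 CPM were at 0 counts. Another 39 genes of at least 20 CPM in DKO were at 0 counts in all 5 WT libraries. A count of 0 in 5 libraries is the stricter condition than in 1, so these numbers are not compared.

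**Figure D1:**
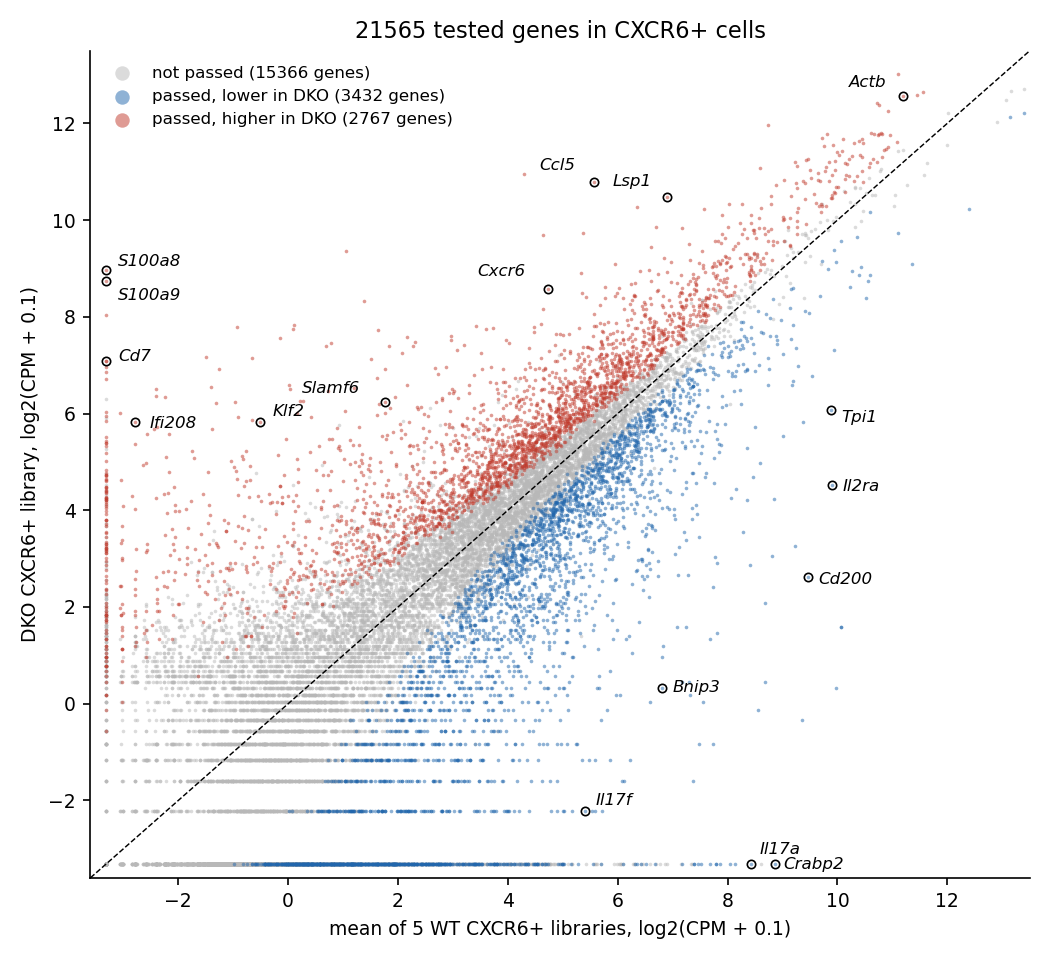
Each point is 1 of 21565 tested genes, with the mean of the 5 WT CXCR6+ libraries on the x axis and the DKO CXCR6+ library on the y axis, both as log2(CPM + 0.1); the dashed line marks equal values. Red points passed the test higher in DKO (2767 genes) and blue points lower (3432 genes); Il17a and Crabp2 sit on the bottom edge with 0 DKO counts, and S100a8 and S100a9 on the left edge with 0 WT counts.

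The 15 genes with the largest decreases, named by a fixed rule, were all at 0 counts in the DKO library. They were led by Crabp2, a carrier of retinoic acid, at 520.0, 562, 287, 546 and 414 CPM in WT (at least 1343-fold lower in DKO). With all 15 at 0 DKO counts, the order and the bounds follow the WT levels and do not rank how far each gene fell. Stra6, a membrane receptor for retinol uptake that belongs to the same vitamin A pathway, was at least 412-fold lower. Cytokine genes made up a second group beside Il17a: Il21, a helper cytokine of TH17 cells, stood at 229.6, 238, 218, 236 and 181 CPM in WT (at least 636-fold lower). Il24, an IL-10 family cytokine, was at least 637-fold lower, the IL-6 family cytokine gene Lif at least 485-fold and the type 2 cytokine gene Il13 at least 229-fold. The chemokine genes Ccl3 and Ccl4, attractants of T cells and macrophages, were at least 674-fold and 593-fold lower. WT replicate 1 held 561 CPM of Ccl3 and the other WT replicates 121 to 176 CPM, and without replicate 1 the bound for Ccl3 is 438-fold. The others were Serpinf1 (the secreted factor PEDF), Mt2 (a metallothionein), Timp1 (an inhibitor of matrix proteases), Rgs16 (a brake on G protein signalling), Tnfrsf8 (CD30) and Xist, with bounds of 247 to 759-fold. With limma-voom, Crabp2, Il17a, Ccl3, Ccl4, Mt2 and Rgs16 did not pass (adjusted p 0.0724 to 0.403).

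The 15 largest increases named by the same rule held 4 kinds of genes. S100a8 and S100a9, the calprotectin subunits abundant in neutrophils and monocytes, reached 498 and 426 CPM in DKO and had no count in any of the 5 WT libraries, at least 7490.0-fold and 6418-fold higher against a floor of 3 counts over the WT group. Camp, a neutrophil granule peptide, stood at 81.8 CPM. T and NK cell surface or granule genes were Cd7 (0 counts in WT, 136 CPM in DKO, at least 2053-fold higher), Gzma, which encodes granzyme A (90.9 CPM, at most 0.223 CPM in WT), Gpr15, a homing receptor for the large intestine (41.5 CPM), and Fgl2 (47.3 CPM). Ifi208, Ifi209 and Ifi213 belong to the interferon-induced p200 family. Ddx3y, Eif2s3y and Uty are Y-linked, and stand beside the lack of Xist counts described above. Whether donor or host cells gave the Y-linked counts was not tested. The remaining 2 were Hrh4, a histamine receptor gene (40.1 CPM, 0 counts in WT), and Mmp25, a membrane-bound protease gene (24.5 CPM).

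Genes of the TH17 programme did not move as a block. Of 25 tested members, 6 were higher and 12 lower in DKO, with a median log2 fold change of 0.020 beside -0.22 over all genes. Il23r, the receptor subunit for the TH17-sustaining cytokine IL-23, stood at 37.0, 35.3, 36.8, 34.5 and 36.8 CPM in WT and at 1.85 CPM in DKO (log2 -4.28, edgeR adjusted p 2.91e-07). Irf4, a transcription factor induced by antigen receptor signals, stood at 226, 207, 203, 229 and 202 CPM in WT and 5.20 CPM in DKO (log2 -5.35). Hif1a, the oxygen-sensing factor that favours TH17 differentiation and glycolysis, stood at 349, 354, 301, 313 and 321 CPM in WT and 38.8 CPM in DKO (log2 -3.08, SE 0.13, edgeR adjusted p 9.67e-08). In each of these 3 genes the 5 WT values lay close together and the DKO value far below. In the other direction, Rora, a nuclear receptor of the TH17 programme, rose to 79.2 CPM (WT 14.96 to 26.1 CPM, log2 2.03, edgeR adjusted p 0.000136). Ccr6, the chemokine receptor of TH17 cells, was at most 0.498 CPM in WT and 47.3 CPM in DKO (edgeR adjusted p 0.000898, not passed with DESeq2's Wald test).

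**Figure D2:**
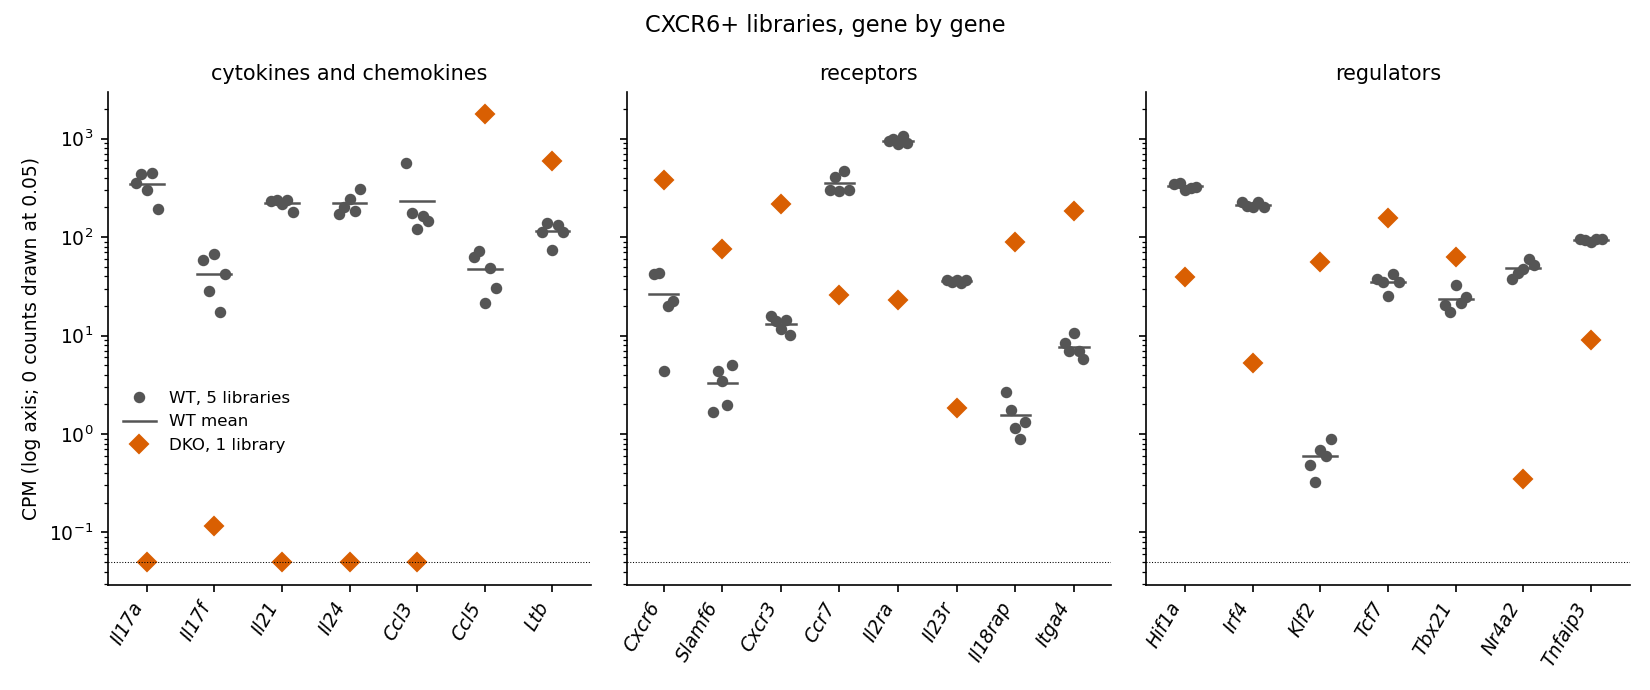
CPM on a log axis for 22 genes, with grey points for the 5 WT CXCR6+ libraries, a grey bar for their mean and an orange diamond for the single DKO CXCR6+ library; 0 counts are drawn at 0.05. For each gene shown the diamond lies outside the range of the 5 WT points, above it for genes such as Ccl5 (1759 CPM) and below it for genes such as Il2ra (23.01 CPM).

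TH1 and encephalitogenic genes moved in both directions. Of 21 tested, 7 were higher and 8 lower (median log2 -1.21). Il12rb2, the inducible IL-12 receptor chain, fell to 15.03 CPM (WT 157 to 194 CPM, log2 -3.53), while Il18rap, a chain of the IL-18 receptor, rose to 88.3 CPM (WT 0.896 to 2.65 CPM, log2 5.82). Of the lymphotoxin genes, Lta was lower (98.0 to 143 CPM in WT, 8.44 CPM in DKO) and Ltb higher (113, 139, 73.2, 132 and 113 CPM in WT, 598 CPM in DKO). Bhlhe40, a factor needed for GM-CSF production in encephalitogenic T cells, fell to 142 CPM (WT 394 to 476 CPM). Csf2, which encodes GM-CSF, was low throughout, at 0.446 to 7.96 CPM in WT and 0 counts in DKO (edgeR adjusted p 0.023, not passed with limma-voom). Tnf fell to 16.6 CPM (WT 80.9 to 165 CPM, log2 -2.84, edgeR adjusted p 0.000639). Ifng did not pass: WT libraries ranged from 0.335 to 27.7 CPM around the DKO value of 4.05 CPM (edgeR adjusted p 0.708). Tbx21, the TH1 lineage factor T-bet, rose to 63.2 CPM (WT 17.2 to 32.3 CPM, log2 1.44, edgeR adjusted p 0.00212).

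Type 2 cytokine genes were lower where they passed. Of 11 tested members of that list, 4 fell and none rose, and the other 7 did not pass. Besides Il13, Il4 stood at 21.2, 36.0, 7.65, 10.1 and 21.8 CPM in WT and 2.66 CPM in DKO (log2 -2.86, edgeR adjusted p 0.0346), and Il5 at 16.3, 23.2, 4.46, 54.7 and 23.8 CPM in WT and 0.231 CPM in DKO (edgeR adjusted p 0.0244). The WT replicates themselves differed widely in Il5. Without WT replicate 1 or 5 the call of Il4 was lost, and with limma-voom 1 member was lower and 2 were higher.

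Among 12 tested chemokine receptor genes, 3 were higher and 2 lower, and among 11 tested chemokine genes 2 were higher and 3 lower. With 12.8% of all tested genes called higher and 15.9% lower, nothing is read from these counts for either family, and single members are given for their own values. Cxcr3, the receptor of interferon-induced chemokines, stood at 15.8, 14.2, 11.5, 14.2 and 10.2 CPM in WT and 217 CPM in DKO (log2 4.04, edgeR adjusted p 3.49e-07). Ccr2, the receptor by which T cells and monocytes enter the inflamed CNS, rose to 334 CPM (WT 38.6 to 89.9 CPM, log2 2.30). Ccr7, which directs T cells to lymph nodes, stood at 301, 404, 291, 465 and 297 CPM in WT and 25.5 CPM in DKO (log2 -3.78). Ccl5, a chemokine of effector and memory T cells, stood at 63.1, 71.9, 21.4, 49.0 and 30.2 CPM in WT and 1759 CPM in DKO (log2 5.22, edgeR adjusted p 1.11e-05), whereas Ccl3 and Ccl4 were at 0 counts. With limma-voom none of the 11 chemokine genes passed lower.

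The receptor of the missing cytokines was itself expressed at a higher level. Of 9 tested genes of the IL-17 receptor and response list, 5 were higher and none lower (median log2 1.73). Il17ra, the shared receptor chain, stood at 26.9, 25.7, 21.6, 27.5 and 20.4 CPM in WT and 90.8 CPM in DKO (log2 1.89, SE 0.16, edgeR adjusted p 8.09e-06). Il17rc, its partner for IL-17A and IL-17F, stood at 1.45, 0.658, 1.60, 0.797 and 0.669 CPM in WT and 23.9 CPM in DKO (log2 4.52). Il17re, the IL-17C receptor chain described on TH17 cells, stood at 8.32, 9.44, 6.63, 7.67 and 7.03 CPM in WT and 91.4 CPM in DKO (log2 3.55). Lcn2, an IL-17-induced neutrophil granule gene, was at most 0.343 CPM in WT and 15.4 CPM in DKO, where neutrophil genes were also high.

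Genes switched on early by the T cell receptor were lower. Of 24 tested, 17 fell and 1 rose (median log2 -1.99). Nr4a1, Nr4a2 and Nr4a3, orphan nuclear receptors used as reporters of antigen receptor signalling, were all lower. Nr4a1 fell to 7.63 CPM (WT 87.5 to 136 CPM, log2 -3.80) and Nr4a3 to 3.24 CPM (WT 40.8 to 78.4 CPM, log2 -4.20). Nr4a2 was at 3 counts (0.347 CPM) in DKO and 37.8 to 59.8 CPM in WT, a ratio of WT mean to DKO of 138 (exact Poisson interval 47.3 to 671). Egr2 stood at 70.5, 57.3, 63.2, 68.8 and 55.3 CPM in WT and 2.77 CPM in DKO (log2 -4.50, edgeR adjusted p 5.21e-07). Tnfaip3, the NF-κB brake A20, stood at 95.7, 94.0, 89.4, 94.4 and 95.8 CPM in WT and 9.02 CPM in DKO (log2 -3.38, SE 0.11, edgeR adjusted p 2.64e-08). The AP-1 genes Junb and Fosl2 were lower too (log2 -2.51 and -3.08). The receptor complex itself went the other way: of 19 tested genes of the complex and its proximal kinases, 9 were higher and 1 lower. Cd3e stood at 166, 156, 156, 179 and 141 CPM in WT and 578 CPM in DKO (log2 1.86). Lat, the adaptor that relays the signal, rose to 899 CPM (WT 287 to 350.0 CPM), and Ubash3a, a negative regulator of the receptor, to 223 CPM (WT 5.71 to 16.3 CPM). These changes stand beside the different receptor segments of the DKO library, whose part in them was not tested.

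Several surface receptors that follow T cell activation were lower, while the lists they belong to were split. Il2ra, the high-affinity IL-2 receptor chain CD25, stood at 951, 982, 870.3, 1054 and 904 CPM in WT and 23.01 CPM in DKO (log2 -5.37, SE 0.15, edgeR adjusted p 1.11e-08). Tnfrsf9 (4-1BB) fell to 4.16 CPM (WT 303 to 472 CPM) and Tnfrsf4 (OX40) to 46.0 CPM (WT 381 to 564 CPM). They belong to 14 tested genes of the TNF receptor superfamily, of which 6 were lower and 3 higher, the latter including Tnfrsf25 (DR3, log2 1.43). Il2ra, Tnfrsf9 and Tnfrsf4 are also shared with regulatory T cells: 8 of 12 tested genes of that list were lower and 1 higher, with Foxp3 itself near 0 in every library. Checkpoint genes were split, 6 of 14 higher and 5 lower. Cd200, the ligand of an inhibitory myeloid receptor, stood at 722, 651, 717, 773 and 673 CPM in WT and 6.01 CPM in DKO (log2 -6.88, edgeR adjusted p 9.41e-09). Lag3 fell to 0.462 CPM (WT 148 to 276 CPM), Ctla4 to 8.09 CPM (WT 173 to 247 CPM), Btla to 16.4 CPM (WT 158 to 167 CPM) and Pdcd1 (PD-1) to 12.3 CPM (WT 60.1 to 127 CPM). Entpd1 (CD39), an ATP-degrading ectoenzyme, rose to 25.2 CPM (WT 3.26 to 5.16 CPM). Havcr2 (TIM-3) did not pass (2.06 to 9.89 CPM in WT, 4.51 CPM in DKO).

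Cytokine receptors and their signal transducers shifted as well, with 12 of 22 tested genes lower and 7 higher. Stat5a, which relays IL-2 signals, stood at 206, 182, 198, 199 and 182 CPM in WT and 25.7 CPM in DKO (log2 -2.91, edgeR adjusted p 7.48e-08), and Il4ra fell to 40.7 CPM (WT 203 to 261 CPM). Ifngr1, the ligand-binding chain of the interferon-γ receptor, rose to 338 CPM (WT 32.0 to 50.4 CPM), Il27ra to 141 CPM (WT 26.8 to 36.7 CPM) and Jak1 to 201 CPM (WT 47.1 to 62.3 CPM). Il2rb rose slightly (log2 0.48), whereas Il2rg did not pass (log2 0.61, edgeR adjusted p 0.054).

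Most genes of the egress and quiescence list were higher. Klf2, the factor that maintains quiescence and egress from tissue, stood at 0.483, 0.329, 0.685, 0.598 and 0.893 CPM in WT and 56.4 CPM in DKO (log2 6.53, SE 0.34, edgeR adjusted p 3.49e-07). Its target S1pr1, the sphingosine-1-phosphate receptor for exit from tissue, rose to 199 CPM (WT 31.0 to 40.8 CPM), and S1pr4 to 232 CPM (WT 20.2 to 28.3 CPM). Tsc22d3 (GILZ), a glucocorticoid and FOXO target, stood at 27.4, 26.1, 20.3, 27.0 and 23.8 CPM in WT and 287 CPM in DKO (log2 3.52). In all, 10 of 13 tested genes of the egress and quiescence list rose and 2 fell (median log2 1.65). Among genes of resident and effector memory T cells, Itga4, the α4 chain of the VLA-4 integrin that mediates T cell entry into the CNS, stood at 8.32, 7.02, 10.5, 6.97 and 5.80 CPM in WT and 183 CPM in DKO (log2 4.56). Its partners Itgb1 and Itgb7 rose to 201 and 932 CPM (WT 23.5 to 34.8 and 91.3 to 116 CPM). Integrin genes did not move one way: outside the lists, Itga3 fell to 6.13 CPM (WT 85.7 to 107 CPM, log2 -3.91) and Itga5, another partner of Itgb1, to 0.578 CPM (WT 14.3 to 24.2 CPM, log2 -5.13). In the memory list, Cd226, a costimulatory adhesion receptor, rose to 205 CPM (WT 19.4 to 25.3 CPM), while Rgs1, which dampens chemokine receptor signals, fell to 18.6 CPM (WT 354 to 551 CPM). Of 17 tested genes of that list, 10 rose and 4 fell (median log2 1.90). Cd69 did not pass (36.1 to 83.5 CPM in WT, 96.9 CPM in DKO).

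Stem-like genes moved both ways, 8 of 20 tested higher and 6 lower. Tcf7, which encodes TCF1, stood at 37.4, 34.9, 24.9, 41.7 and 35.1 CPM in WT and 157 CPM in DKO (log2 2.17, edgeR adjusted p 6.95e-06). Bach2, a repressor of effector differentiation, stood at 64.9, 60.5, 63.9, 55.9 and 63.4 CPM in WT and 5.78 CPM in DKO (log2 -3.41, edgeR adjusted p 7.87e-08). Lef1 was modestly higher (log2 0.53, edgeR adjusted p 0.0301), a call that was lost without WT replicate 2 or 5. In the SLAM receptor family, which includes Slamf6, 6 of 10 tested genes were higher and 3 lower. Cd48 rose to 545 CPM (WT 44.8 to 70.5 CPM) and Cd84 to 125 CPM (WT 24.8 to 44.9 CPM), while Slamf1 and Slamf7 fell to 48.8 and 37.2 CPM (WT 86.9 to 118 and 58.5 to 92.2 CPM), and Sh2d1a, which encodes the adaptor SAP, to 37.9 CPM (WT 70.7 to 84.6 CPM).

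Receptors shared with natural killer (NK) cells were higher, 7 of 12 tested with none lower (median log2 4.13). Klrk1 (NKG2D) stood at 13.3, 10.6, 5.60, 4.68 and 7.48 CPM in WT and 159.9 CPM in DKO (log2 4.26), and Klrd1 (CD94) at 6.03, 5.60, 3.66, 4.88 and 1.79 CPM in WT and 96.0 CPM in DKO (log2 4.45). Ncr1 (NKp46), which defines NK cells, was at most 0.439 CPM in WT and 7.86 CPM in DKO. Tyrobp (DAP12) and Fcer1g, adaptors of NK and myeloid cells, reached 33.6 and 25.1 CPM against at most 1.03 and 1.03 CPM in WT. Summed over the 12 genes, WT libraries held 18.3 to 49.7 CPM and the DKO library 385 CPM, from all 12 genes. The hosts keep NK cells, whose part in these values was not tested.

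Of 12 tested cytotoxic granule genes 4 were higher and 2 lower, beside 12.8% of all tested genes called higher and 15.9% lower. The lower count is near that share, and nothing is read from it. Gzmb, which encodes granzyme B, stood at 873, 817, 430.2, 756 and 447 CPM in WT and 56.2 CPM in DKO (log2 -3.56, edgeR adjusted p 0.000251), opposite in direction to Gzma and to Ctsw, a protease of cytotoxic lymphocytes (29.1 to 50.8 CPM in WT, 476 CPM in DKO). Prf1, which encodes perforin, did not pass (edgeR adjusted p 0.191).

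Glycolysis was the metabolic pathway with the most uniform difference. All 19 tested genes of the list were lower in DKO, and all 19 lay below the WT range (median log2 -1.85, against 15.9% of all tested genes called lower). Bnip3, a hypoxia-induced mitophagy gene placed in this list as a HIF target, stood at 94.1, 107, 120.1, 115 and 120.3 CPM in WT and 1.16 CPM in DKO (log2 -6.57, SE 0.25, edgeR adjusted p 5.68e-08). Hk2, the inducible hexokinase that starts glycolysis, stood at 94.8, 100.3, 84.6, 94.6 and 99.3 CPM in WT and 7.40 CPM in DKO (log2 -3.68). Further down the pathway, Tpi1 stood at 834, 941, 927, 1036 and 998 CPM in WT and 67.6 CPM in DKO (log2 -3.81, edgeR adjusted p 9.37e-08), Pgk1 fell to 158 CPM (WT 881 to 1042 CPM, log2 -2.63) and Pgam1 to 109.9 CPM (WT 696 to 791 CPM, log2 -2.75). Decreases were smallest in Gpi1 (log2 -0.43), which did not pass in a fit of the 6 CXCR6+ libraries alone, and in Hk1, the constitutive hexokinase (log2 -0.90). Several of these genes have processed pseudogenes, so part of their reads may be assigned elsewhere. Summed over the list, WT libraries held 12479 to 14173 CPM and the DKO library 3866 CPM.

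Promoters of 4 glycolysis genes are shown with the core letters of the hypoxia response element, ACGTG, which HIF-1 binds. All 4 hold a match, and windows without a match are not shown. The windows run from 250 bases before to 50 bases after the gene start (RefSeq, GRCm38.p6), 18 of 19 symbols matched, and both strands were searched. ACGTG, some of it inside the E-box CACGTG, was found for 12 of 18 glycolysis genes (66.7%) and for 21.8% of 27025 symbols with a window. A symbol counts if any of its windows matches. By window, the shares were 13 of 26 for glycolysis (50%) and 19.6% of all windows. The whole E-box was found for 2 of the 18 and for 8.09% of all symbols. The windows are Bnip3 at chr7:138909457-138909756 (- strand), Hk2 at chr6:82774405-82774704 (- strand), Pgk1 at chrX:106186850-106187149 (+ strand) and Pgam1 at chr19:41911621-41911920 (+ strand). Capitals mark the match on either strand, and each sequence reads 5′ to 3′ along the gene.
Bnip3: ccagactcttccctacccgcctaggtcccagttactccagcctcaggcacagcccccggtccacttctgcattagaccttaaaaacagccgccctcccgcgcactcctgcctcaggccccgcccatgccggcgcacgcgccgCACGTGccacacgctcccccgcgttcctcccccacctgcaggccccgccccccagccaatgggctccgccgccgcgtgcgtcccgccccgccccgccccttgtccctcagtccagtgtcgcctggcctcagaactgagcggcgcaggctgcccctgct
Hk2: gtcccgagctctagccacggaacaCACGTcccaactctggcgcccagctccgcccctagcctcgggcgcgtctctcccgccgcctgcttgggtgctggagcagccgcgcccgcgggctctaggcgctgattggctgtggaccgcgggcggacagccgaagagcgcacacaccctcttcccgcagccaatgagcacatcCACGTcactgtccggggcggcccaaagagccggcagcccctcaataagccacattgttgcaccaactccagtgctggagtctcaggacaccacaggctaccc
Pgk1: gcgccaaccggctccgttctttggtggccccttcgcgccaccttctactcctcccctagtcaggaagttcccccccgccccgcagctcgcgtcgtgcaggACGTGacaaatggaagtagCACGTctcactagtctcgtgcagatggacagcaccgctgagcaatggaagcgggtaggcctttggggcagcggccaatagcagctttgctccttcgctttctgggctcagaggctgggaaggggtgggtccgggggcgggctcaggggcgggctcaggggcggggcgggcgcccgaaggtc
Pgam1: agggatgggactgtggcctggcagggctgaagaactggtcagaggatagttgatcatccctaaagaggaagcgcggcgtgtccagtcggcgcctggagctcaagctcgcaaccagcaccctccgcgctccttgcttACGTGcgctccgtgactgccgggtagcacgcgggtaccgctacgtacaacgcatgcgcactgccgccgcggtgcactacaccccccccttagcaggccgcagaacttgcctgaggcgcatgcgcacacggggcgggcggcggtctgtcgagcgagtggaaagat
Hk2 and Pgk1 each hold 2 separate matches and Pgam1 1. Bnip3 holds 1 site, the E-box, which reads the same on both strands. Bnip3 entered the list as a HIF target, so the share for the list is not free of that choice. A match is a description of the letters and shows no binding. Any part of Hif1a in the lower levels of these genes was not tested.

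Genes of other biosynthetic pathways were lower, whereas nuclear genes of the respiratory chain were not lower as a group. Of 20 tested cholesterol synthesis genes 17 fell and none rose (median log2 -1.46). Fdft1, the squalene synthase gene, stood at 49.9, 49.7, 42.0, 56.8 and 56.3 CPM in WT and 12.8 CPM in DKO (log2 -1.99), and Lss, the lanosterol synthase gene, fell to 16.4 CPM (WT 60.4 to 82.3 CPM). Of 18 tested genes of amino acid supply and serine or one-carbon metabolism, 15 fell and none rose (median log2 -1.84). Psat1 of serine synthesis stood at 141, 139, 160.5, 150.3 and 131 CPM in WT and 20.1 CPM in DKO (log2 -2.84), Asns, which makes asparagine, fell to 7.86 CPM (WT 49.1 to 67.0 CPM), and the glutamine transporter gene Slc1a5 did not pass (log2 -0.18). Nuclear genes of oxidative phosphorylation were more often higher, 12 of 23 tested against 2 lower, by small amounts (median log2 0.34). Ndufa1, a complex I subunit, rose to 557 CPM (WT 203 to 225 CPM, log2 1.36), whereas the mitochondrially encoded share of counts was lower, as given above. Gene by gene, 3 of 35 tested genes of the mitochondrial genome were called lower (8.57%) and none higher. Of all tested genes 15.9% were called lower. Chaperones of the unfolded protein and heat shock responses were lower for 10 of 18 and higher for 4, with 1 higher in a fit of the 6 CXCR6+ libraries alone. Hspa5 (BiP) stood at 465 to 802 CPM in WT and 165 CPM in DKO.

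Cell cycle genes were lower. Of 21 tested mitosis genes, 20 fell and 1, Hmgb2, rose (median log2 -2.77). Hmgb2 (log2 0.51, edgeR adjusted p 0.0498) lost its call without any 1 of WT replicates 1 to 4. Bub1, a spindle checkpoint kinase, stood at 19.8, 24.9, 25.9, 19.1 and 19.3 CPM in WT and 0.578 CPM in DKO (log2 -5.20), and Aurkb, a kinase of chromosome segregation, at 80.8, 98.7, 82.5, 72.2 and 98.2 CPM in WT and 7.86 CPM in DKO (log2 -3.46). Cdk1, the kinase that drives entry into mitosis, fell to 16.2 CPM (WT 96.8 to 144 CPM) and Mki67, the proliferation antigen, to 13.4 CPM (WT 34.5 to 49.8 CPM). Of 20 tested replication genes 14 fell and none rose, with a smaller median (log2 -1.01). Uhrf1, which maintains DNA methylation at replication forks, fell to 11.3 CPM (WT 85.9 to 101 CPM, log2 -3.01) and Mcm3, a subunit of the replicative helicase, to 59.7 CPM (WT 133 to 154 CPM, log2 -1.23), while Mcm2 did not pass (log2 -0.30, edgeR adjusted p 0.248).

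Promoters of the mitosis genes, which moved together, were searched for TTTGAA, the letters of the cell cycle homology region through which the DREAM and MuvB complexes time mitotic genes. It was found on either strand for 12 of 17 matched mitosis symbols (70.6%) and for 20.2% of all symbols. Cdk1 (chr10:69352863-69353162 (- strand)) and Aurka (chr2:172370521-172370820 (- strand)) are shown, with matches in capitals.
Cdk1: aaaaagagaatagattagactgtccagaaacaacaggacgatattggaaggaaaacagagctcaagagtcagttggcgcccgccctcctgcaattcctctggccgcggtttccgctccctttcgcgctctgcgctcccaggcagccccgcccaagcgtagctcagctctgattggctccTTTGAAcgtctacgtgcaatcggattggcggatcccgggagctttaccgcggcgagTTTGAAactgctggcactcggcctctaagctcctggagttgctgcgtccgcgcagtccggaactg
Aurka: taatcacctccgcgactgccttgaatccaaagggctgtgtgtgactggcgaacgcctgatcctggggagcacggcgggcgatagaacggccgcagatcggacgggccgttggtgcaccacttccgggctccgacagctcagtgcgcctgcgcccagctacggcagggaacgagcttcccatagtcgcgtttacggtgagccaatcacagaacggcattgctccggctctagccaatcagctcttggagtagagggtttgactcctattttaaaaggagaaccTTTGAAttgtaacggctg
Cdk1 holds 2 matches and Aurka 1. For the cholesterol list, the sterol regulatory element was found in none of 13 matched symbols and in 0.270% of all symbols, which says only that these letters are not in the windows.

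Interferon-induced genes were mixed but leaned higher, 14 of 29 tested higher and 5 lower (median log2 0.81). Ifi47, an immunity-related GTPase, stood at 50.8, 65.0, 47.2, 57.0 and 51.0 CPM in WT and 335 CPM in DKO (log2 2.63, edgeR adjusted p 1.88e-07), and Zbp1, a nucleic acid sensor, rose to 72.6 CPM (WT 21.2 to 24.1 CPM). Stat2 fell to 24.2 CPM (WT 61.5 to 81.0 CPM), and Isg15 did not pass (10.1 to 36.0 CPM in WT, 22.0 CPM in DKO). Of 13 tested MHC class I genes 9 rose and 1 fell. B2m, the light chain of MHC class I, stood at 1724, 1723, 1614, 1911 and 1715 CPM in WT and 5316 CPM in DKO (log2 1.61), and H2-K1 rose to 6148 CPM (WT 2363 to 3139 CPM), with the reservation that reads of the near-identical class I genes may be split.

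A single gene cluster stood out for its scale, and was singled out after its values had been seen. The p200 or PYHIN genes, which encode interferon-induced DNA sensors, lie side by side on chromosome 1 (cluster from 173350879 to 174031810, GRCm38). Of 12 tested genes in that stretch, counted by position and not by family, 9 were higher and none lower in DKO. Ifi208 was at 0, 0, 0.114, 0 and 0.112 CPM in WT and 56.6 CPM in DKO, and Ifi213 at 0.121, 0, 0, 0 and 0.335 CPM in WT and 52.8 CPM in DKO. Ifi209 reached 81.4 CPM and Ifi206 50.9 CPM, Mndal reached 175 CPM and Ifi203 141 CPM, against at most 2.39 CPM of any of these 6 genes in a WT library. Aim2, the inflammasome sensor at the edge of the cluster, was present in WT (7.36, 7.13, 9.48, 5.58 and 5.02 CPM) and rose to 38.5 CPM (log2 2.48). Ifi204, Ifi205 and Ifi211 did not pass. The DKO SLAMF6+ library held 44.2 CPM of Ifi208 and 50.2 CPM of Ifi213, and WT SLAMF6+ libraries at most 0.198 and 0.281 CPM. These genes are near copies of each other, so the split of reads among them is uncertain.

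The promoters of 3 genes with closely alike windows, chosen after those of 7 had been compared, are given with the interferon-stimulated response element core (GAAA, any 2 bases, then GAAA, on either strand) in capitals. The windows are Ifi206 at chr1:173491269-173491568 (- strand), Ifi208 at chr1:173673415-173673714 (+ strand) and Ifi213 at chr1:173599223-173599522 (- strand).
Ifi206: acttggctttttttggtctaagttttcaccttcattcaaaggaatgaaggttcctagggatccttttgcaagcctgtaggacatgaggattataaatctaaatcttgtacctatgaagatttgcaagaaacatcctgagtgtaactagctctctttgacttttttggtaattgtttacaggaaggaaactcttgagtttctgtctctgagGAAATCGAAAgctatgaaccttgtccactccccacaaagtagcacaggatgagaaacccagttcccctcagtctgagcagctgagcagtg
Ifi208: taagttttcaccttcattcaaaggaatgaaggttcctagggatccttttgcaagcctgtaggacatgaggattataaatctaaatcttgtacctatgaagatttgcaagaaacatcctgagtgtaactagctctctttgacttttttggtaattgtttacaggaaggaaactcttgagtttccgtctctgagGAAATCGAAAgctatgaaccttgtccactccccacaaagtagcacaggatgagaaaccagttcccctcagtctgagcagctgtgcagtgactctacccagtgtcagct
Ifi213: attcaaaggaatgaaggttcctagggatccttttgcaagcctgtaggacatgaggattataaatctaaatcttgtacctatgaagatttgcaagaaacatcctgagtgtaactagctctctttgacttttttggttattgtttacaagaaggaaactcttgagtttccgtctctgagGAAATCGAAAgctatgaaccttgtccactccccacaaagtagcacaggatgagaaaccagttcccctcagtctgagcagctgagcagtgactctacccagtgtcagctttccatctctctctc
Ifi206 and Ifi208 share a run of 182 identical bases, and Ifi213 shares 135 with Ifi206. Most windows of the cluster are less alike: of 21 pairs among the 7 genes, 16 share a longest run of only 10 to 21 bases, taking the best of their windows, and Ifi203 shares 139 with Mndal. The element was found for 8 of 10 matched genes of the cluster, for 15 of 20 matched interferon-induced genes and for 3.99% of all symbols. The window of Ifi209, a gene of the 15 largest increases, held 0 matches.

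Cytoskeletal and motility genes were among the most uniformly higher. Of 21 tested, 18 rose and 1, Anxa2, fell (median log2 1.35; 12.8% of all genes were called higher). Lsp1, a leukocyte F-actin-binding protein gene, stood at 114, 119, 113, 130.3 and 118 CPM in WT and 1434 CPM in DKO (log2 3.59, SE 0.078, edgeR adjusted p 3.16e-09). Crip1 rose to 4023 CPM (WT 386 to 463 CPM), Tmsb10, an actin-sequestering peptide gene, to 3302 CPM (WT 707 to 983 CPM) and Coro1a to 1733 CPM (WT 560.3 to 667 CPM). Of 8 tested GIMAP genes, GTPases of lymphocyte survival, 7 rose and none fell, with Gimap4 at 156, 148, 120.4, 161 and 137 CPM in WT and 907 CPM in DKO (log2 2.65). Apoptosis genes were mixed (4 of 16 higher, 6 lower, beside 12.8% and 15.9% of all tested genes). The survival genes Bcl2l1 and Bcl2 fell to 39.9 CPM (WT 138 to 169 CPM) and 65.1 CPM (WT 143 to 187 CPM), whereas Cflar, an inhibitor of caspase-8, rose to 152 CPM (WT 68.2 to 84.8 CPM).

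**Figure D3:**
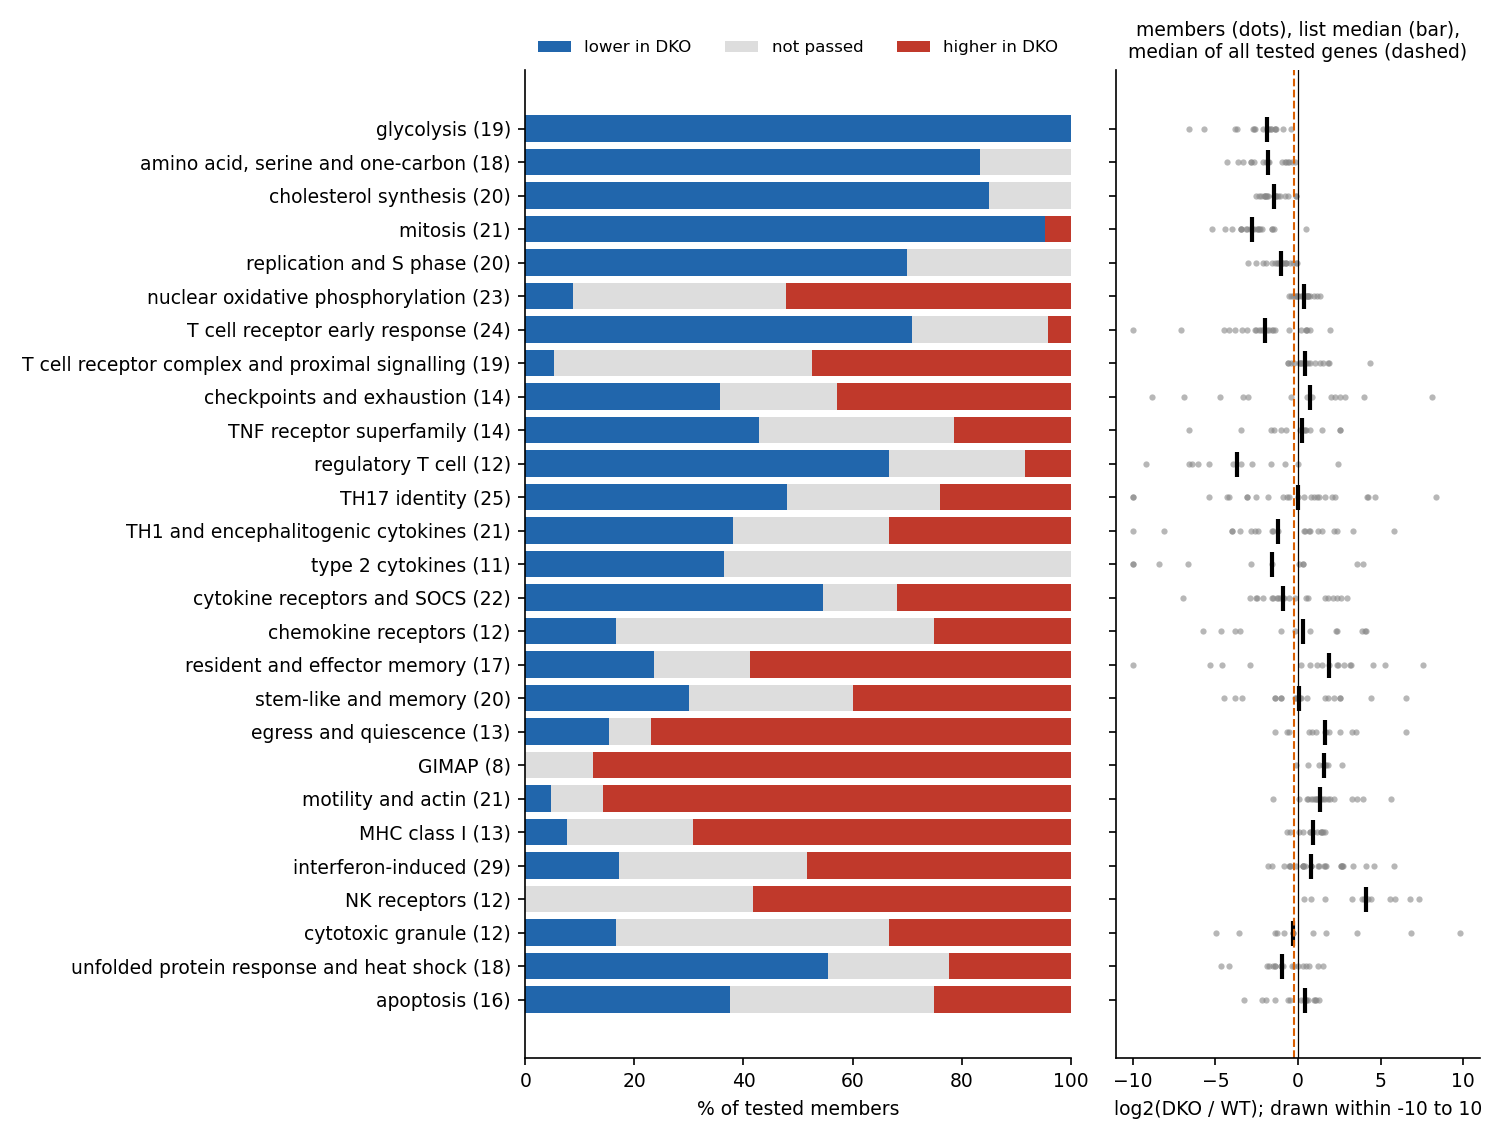
For 27 gene lists, the left panel gives the percentage of tested members (number in parentheses) that were lower, not passed or higher in the DKO library, and the right panel gives each member's log2 fold change as a dot, the list median as a bar and the median of all tested genes (-0.22) as a dashed line. All glycolysis genes lie left of the dashed line; the motility, GIMAP and egress medians lie right of it, and TH17 genes spread over both sides; values are drawn within -10 to 10.

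Markers of other cells were measured in the same libraries, and their part in the results was not tested. Summed over 11 neutrophil genes, WT libraries held 0.228 to 4.17 CPM and the DKO library 1049 CPM, from 8 of the 11 genes. S100a8 and S100a9 made up most of it, with Ngp at 27.4 and Ltf at 11.4 CPM, Ly6g at 1.62 CPM and Retnlg at 0 counts. Over 16 myeloid genes the sums were 51.2 to 67.7 CPM in WT and 110.4 CPM in DKO, with Lyz2 at 10.4, Itgam at 2.31 and Csf1r at 1.04 CPM and 7 genes at 0 counts. The 13 dendritic cell and MHC class II genes summed to 401 to 584 CPM in WT and 337 CPM in DKO; H2-Aa was higher (39.1 CPM in DKO) and Batf3 lower (139 to 223 CPM in WT, 0.462 CPM in DKO). For 10 B cell genes the sums were 36.4 to 45.9 and 130.4 CPM, nearly all of the latter Ighm (124 CPM), with Cd79a at 0.578 CPM. Microglial genes summed to 21.1 to 43.3 CPM in WT and 71.4 CPM in DKO, where P2ry12 and Siglech were at 0 counts. Oligodendrocyte genes summed to 65.5 to 75.8 and 253 CPM, mostly Cnp and Mbp, which T cells also express, with 4 of the 9 genes at 0 counts. The CD8 genes Cd8a, Cd8b1 and Gzmm summed to 8.09 CPM in DKO (4.23 to 19.9 CPM in WT), and 5 genes of gamma-delta T cells to 10.2 CPM (2.97 to 5.49 CPM), with the gamma-delta receptor gene Trdc at 0.462 CPM. Astrocyte genes summed to 50.8 to 72.4 CPM in WT and 4.05 CPM in DKO, mostly the glycolytic gene Aldoc, with Gfap at 0 counts in DKO. Neuron genes summed to 30.2 to 39.3 CPM in WT, mostly Gap43, and 5.32 CPM in DKO, where 5 of 6 genes were at 0 counts. The 9 endothelial and fibroblast genes summed to 12.5 to 74.9 CPM in WT and 20.8 CPM in DKO, with 7 at 0 counts in DKO. The 9 erythroid genes summed to 9.22 to 13.7 CPM in WT and 38.5 CPM in DKO, of which Bpgm, an enzyme of red cells, made up 35.8 CPM, while haemoglobin genes took 0.000246% of the DKO CXCR6+ counts.

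The genotype difference was set beside that in SLAMF6+ cells, which rests on other libraries. There 31.1% of the 21565 genes were called. In both sorts 3708 genes were called in the same direction, 59.8% of the CXCR6+ calls and 55.4% of the SLAMF6+ calls, and 222 in opposite directions. The DKO SLAMF6+ library departed from WT SLAMF6+ in receptor segments and sex genes too. Trbv16 made up 6.51% of its Trbv counts (99.7 to 99.8% in WT), and Trav9d-3 plus Trav9n-3 0.118% of its Trav counts (89.4 to 90.9%). Its Y-linked genes summed to 131 CPM (at most 0.281 CPM in WT). For shared calls, genotype, receptor make-up and sex of the cells therefore cannot be told apart either. The difference of the differences passed for 2221 genes (10.3% of those tested), 1372 relatively higher in CXCR6+ (6.36%) and 849 relatively lower (3.94%). The median of this difference over all tested genes was -0.10 on the log2 scale. Among glycolysis genes 10 of 19 passed this test, all less reduced in CXCR6+ cells: Tpi1 differed by log2 -3.81 in CXCR6+ and -5.39 in SLAMF6+ (interaction 1.58, edgeR adjusted p 0.00125). Of 23 nuclear oxidative phosphorylation genes 15 passed, all relatively higher in CXCR6+. Ndufa1 differed by log2 1.36 in CXCR6+ and 0.10 in SLAMF6+ (interaction 1.26, edgeR adjusted p 0.00125). Of 21 motility genes 12 passed, again all relatively higher in CXCR6+, among them Lsp1 (interaction 1.04, edgeR adjusted p 0.00201). For these lists the WT levels differed between the sorts more than the DKO levels did. Glycolysis sums were 12479 to 14173 CPM in WT CXCR6+, 24136 to 27697 CPM in WT SLAMF6+, and 3866 and 4121 CPM in DKO. In the same order, oxidative phosphorylation sums were 5250 to 5603, 8657 to 9774, and 6917 and 7150 CPM. Motility sums were 16198 to 17895, 28340 to 31685, and 41888 and 39384 CPM. Early receptor response genes went the other way, with 7 of 24 relatively lower in CXCR6+ and 1, Jun, relatively higher. Egr2 was among the 7 (log2 -4.50 in CXCR6+, -2.22 in SLAMF6+, interaction -2.28, edgeR adjusted p 0.00174). List sums here were 1975 to 2336 CPM in WT CXCR6+, 2093 to 2549 CPM in WT SLAMF6+, and 821 and 1064 CPM in DKO. Of 21 mitosis genes 2 passed, Bub1 relatively lower and Tpx2 relatively higher in CXCR6+. These comparisons stand beside RNA composition that differed between the sorts: mitochondrial genes took 2.20 to 5.24% of counts in WT SLAMF6+ and 8.56% in DKO SLAMF6+, and haemoglobin genes took 11.9% of the DKO SLAMF6+ counts.

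Of the single genes that the rule names for this difference, the smallest p was that of Ifitm2, an interferon-induced membrane protein gene. It rose in CXCR6+ cells (242, 224, 227, 221 and 253 CPM in WT, 549 CPM in DKO) and fell in SLAMF6+ cells (502 to 613 CPM in WT, 224 CPM in DKO), with an interaction of 2.57 (edgeR adjusted p 0.000154). Pbk, Rgcc, Hspa4l and Aldoc were lower in both sorts but less so in CXCR6+. The interaction was 1.87 for Hspa4l, a heat shock protein gene and 2.05 for Rgcc, while Pbk and Aldoc were at 0 and 1 counts in DKO SLAMF6+. Ide, the insulin-degrading enzyme gene, passed in SLAMF6+ (log2 -1.43) and not in CXCR6+ (log2 0.29, interaction 1.72). In the opposite direction, Cd200, Btla, Mgarp, Sapcd2 and Myo10 were lower in both sorts and more so in CXCR6+, Cd200 by -2.10 and Btla by -1.94. Ube2l6 and Fech did not pass in CXCR6+ and were higher in the DKO SLAMF6+ library (185 and 186 CPM), the library with the haemoglobin counts, and Fech encodes the last enzyme of haem synthesis. Phxr4 fell in CXCR6+ (log2 -1.94) and had a log2 difference of 1.06 in SLAMF6+ (edgeR adjusted p 0.000809).

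**Figure D4:**
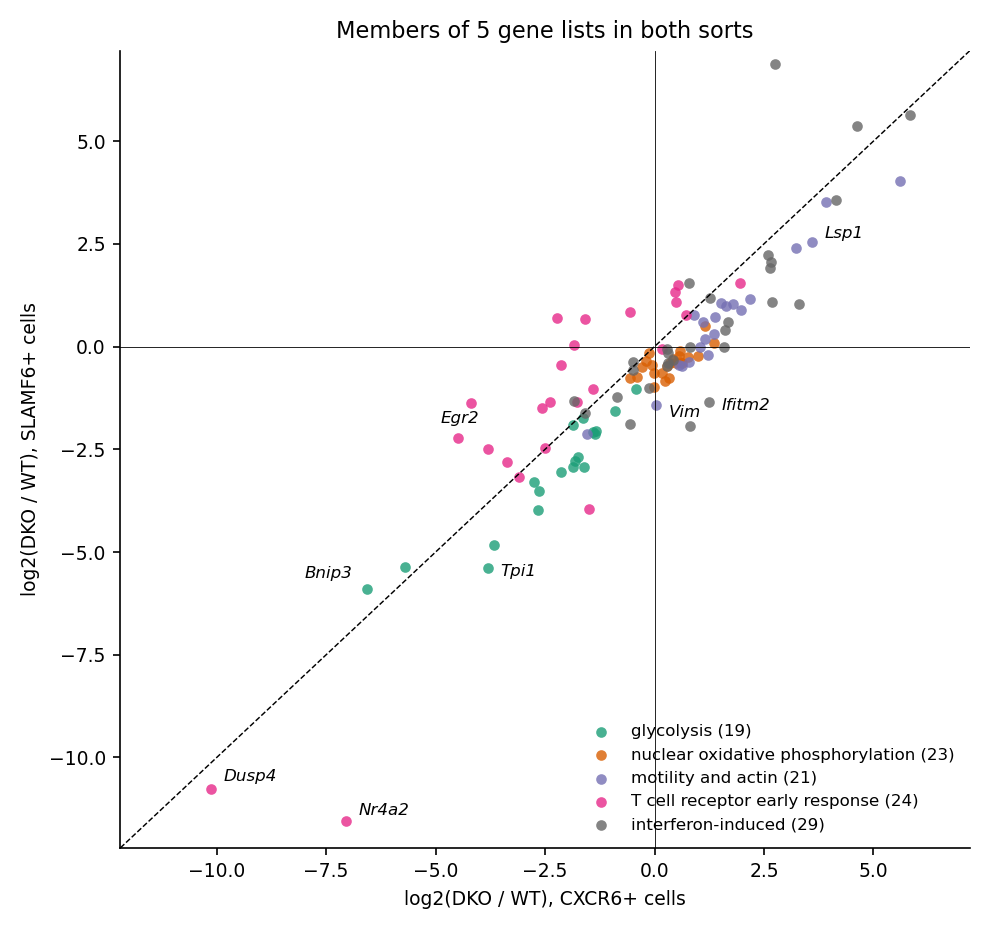
Log2 fold change of DKO over WT in CXCR6+ cells (x axis) and in SLAMF6+ cells (y axis) for the members of 5 gene lists, 1 point per gene; the dashed line marks equal differences. Most glycolysis, oxidative phosphorylation and motility genes lie below the line, most early receptor response genes above it; Dusp4 and Nr4a2 are placed by fitted values that rest on 0 or nearly 0 DKO counts.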

How the data were processed

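Full-length cDNA of sorted cells was sequenced by a modified SMART-Seq2 method, per the labels' protocols. The authors deposited expected counts per gene, for which the submitters' processing notes name RSEM 1.3.3, STAR 2.7.7a and the mm10 build, and these expected counts were rounded to whole numbers and used as deposited. Reads do not carry strand, so antisense partners, overlapping genes and near-identical copies cannot be told apart.

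Genes passing edgeR's filterByExpr (21565 of 47359) were scaled by TMM and tested with edgeR 4.0.16 (quasi-likelihood F test, Benjamini-Hochberg adjustment, threshold 0.05) in 1 fit of 4 groups and 12 libraries with 8 residual degrees of freedom. Replication comes from WT libraries alone. Tested on simulated data, the CXCR6+ contrast recovered 48% of 4-fold and 7% of 2-fold changes among 18887 genes. CPM are counts scaled to the TMM-adjusted library total. A fold against 0 counts is a bound at 3 counts in the DKO library, or over the 5 WT libraries together. Alternatives used limma 3.58.1 (voom), DESeq2 1.42.0, other filters and libraries left out.

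Named genes were the targeted and sort genes, the 15 largest called changes in each direction with at least 20 CPM in the higher group, up to 5 members per list by smallest p with the first 3 of each list, and the 8 smallest interaction p in each direction, without receptor segments, predicted genes, pseudogenes, ribosomal and mitochondrial genes. Outside this rule, Aim2, Anxa2, Ccr6, Cd4, Dusp4, Hmgb2, Ifi203, Ifi204, Ifi205, Ifi206, Itga3, Itga5, Jun, Mndal, Retnlg, Tbx21, Trav9d-3, Trav9n-3 and Trbv16 were named after their values were seen. So was Ifi211. The comparison and the lists were chosen with earlier results of these data known. Positions are from GENCODE M21 (GRCm38), in which 87.3% of symbols matched once, and promoters are from RefSeq (GRCm38.p6). Some genes that this rule names are not reported here.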

Additional observations from a re-analysis of the deposited data

Results flagged for a closer look

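In 10 of 156 named genes with enough counts, 1 of the 5 WT CXCR6+ libraries lay apart from the other 4 by Dixon's test. Chance alone would single out about 1 group in 20, and 7 of the 10 fell on WT replicate 3, the library with the lowest Cxcr6 level. WT replicate 3 held Cd84 at 24.8 CPM (nearest library 40.2 CPM), Isg15 at 36.0 CPM (nearest library 15.3 CPM), Jak1 at 47.1 CPM (nearest library 59.4 CPM), Lta at 98.0 CPM (nearest library 137 CPM). It also held Mgarp at 36.8 CPM (nearest library 30.3 CPM), Tnfaip3 at 89.4 CPM (nearest library 94.0 CPM), Tnfrsf4 at 381 CPM (nearest library 516 CPM). Elsewhere, Ccl3 stood at 561 CPM in WT replicate 1 against a nearest value of 176 CPM, Jun stood at 11.2 CPM in WT replicate 5 against a nearest value of 17.3 CPM, Phxr4 stood at 85.9 CPM in WT replicate 5 against a nearest value of 66.3 CPM.

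The DKO difference itself differed between CXCR6+ and SLAMF6+ cells for 21 named genes (edgeR interaction, adjusted p under 0.05). On the log2 scale, CXCR6+ lay above SLAMF6+ for Ifitm2 by 2.57, Ide by 1.72, Tpi1 by 1.58, Ndufa1 by 1.26, Lsp1 by 1.04, Hspa4l by 1.87, Rgcc by 2.05, Tpx2 by 1.39 and Jun by 2.46. It lay below for Ube2l6 by -3.17, Fech by -2.86, Phxr4 by -2.996, Cd200 by -2.10, Btla by -1.94, Egr2 by -2.28 and Bub1 by -3.51. The fitted interactions of Pbk (9.47), Aldoc (5.13), Mgarp (-7.21), Myo10 (-4.90) and Sapcd2 (-5.35) rest on 0 to 2 counts in 1 of the DKO libraries and give no size. Each sort sets 1 DKO library against 5 WT libraries, so these differences rest on single DKO libraries, and their cause was not tested.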

How the results depend on the processing

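The count of 6199 genes that differed in CXCR6+ cells ranged from 4535 (at least 10 CPM in 5 libraries) to 7052 (DESeq2's Wald test), and from 5936 to 6203 without 1 WT CXCR6+ replicate. A fit of the 6 CXCR6+ libraries alone gave 4953. The count of 2221 genes whose difference differed between the sorts ranged from 1534 (no filter on low counts) to 3259 (DESeq2's Wald test), and from 1856 to 2347 without 1 WT replicate. With the 10 CPM filter its split turned to 1039 relatively higher and 1255 relatively lower. All stayed within 1.5 times the reported counts. With the replicate number as a random replicate block in limma-voom the counts were 6563 and 2268, against 6558 and 2144 without it (block correlation 0.022), and no named call changed between these fits. A fixed replicate block could not be fitted for the CXCR6+ comparison, because the number 0 of the DKO libraries is shared with no WT library. For the difference between the sorts it could, an alternative chosen after seeing the data, and edgeR then called 1554 genes (1014 relatively higher, 540 relatively lower) with 4 residual degrees of freedom and ended no named call.

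Of 176 named genes called in CXCR6+ cells, 157 kept call and direction in every alternative that tested them and 19 lost the call in at least 1, most often with limma-voom (14). None reversed. Of 21 named interactions 14 were kept and 7 were lost with limma-voom. Among the lists, the 10 CPM filter left fewer members to test, for example 2 of 12 NK receptor genes, of which 1 was higher. The glycolysis list held 18 to 19 lower genes, mitosis 20 and motility 18 to 19 higher genes in every alternative. The depth of a single DKO library limits what can be said of genes at or below 0.347 CPM there. Simulated 2-fold changes were seldom recovered. By fitted values, however, 4611 of the 6199 calls in these data were at least 2-fold and the others smaller. The simulated rate therefore does not give the rate for these data.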
